A study of Mus musculus with 18 samples.

Results

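The 34 genes described here encode the carriers and enzymes that bring glucose into a cell, break it down to pyruvate, convert pyruvate to lactate and export it, control pyruvate entry into mitochondria, and divert glucose 6-phosphate into the pentose phosphate pathway. They were chosen by gene symbol, from Slc2a1 and Slc2a3 at the start of the pathway to Tkt and Taldo1 in its pentose phosphate branch. The symbols matched 35 of the 54532 rows of the count table, because Aldoa has a second row (ENSMUSG00000114515) with 43 counts over all libraries, which passed no filter. The other 34 rows all passed the filter on low counts in the microglia libraries and in the fit of all libraries, and 32 passed it in the non-microglia libraries, where Hk3 and Slc16a7 did not.

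Cells were sorted from retinas of rd1 mice (FVB background) at postnatal day 30, and polyA RNA was sequenced after a modified Smart-Seq2 preparation. The rd1 strain carries a defect of the rod phosphodiesterase and loses its rods early in life. Every mouse had received AAV8-GFP, an adeno-associated virus carrying green fluorescent protein, under the retina, and the treated mice had received AAV8-TGFB1 together with it. The 18 libraries were GFP microglia (7), TGFB1 microglia (7), GFP non-microglia (2) and TGFB1 non-microglia (2), so no group was without virus or without the rd1 defect. Non-microglia are a mixture of the other sorted retinal cells, and the sources used here do not name the promoters that drive the transgenes or the number of animals per library. Whether 2 libraries of a group came from different mice is also not stated, and the p-values below reflect variation among libraries, some of which may be technical.

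Glycolysis turns glucose into pyruvate in the cytosol with a small yield of ATP, and lactate dehydrogenase with the monocarboxylate transporters lets it run without mitochondria. Several steps are catalysed by isozymes from different genes, and cell types differ in the isozymes they use. The retina is known for high glycolysis in the presence of oxygen, mostly attributed to photoreceptors, with Müller glia and neurons differing in their isozymes. In macrophages and microglia glycolysis is known to increase on activation, and the pentose phosphate pathway supplies NADPH to the phagocyte oxidase and to antioxidant enzymes.

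Total counts per library ran from 1582451 to 3064027, and 3 counts corresponded to 0.881 to 2.12 CPM (counts scaled to a library size of 1e+06 after TMM normalization). The 34 genes took 0.407 to 0.452% of the counts in microglia and 1.01 to 1.04% in non-microglia. The 10 microglia markers (among them Cx3cr1, P2ry12 and Tmem119) summed to 39369 to 49047 CPM in microglia and to 55.6 to 68.0 CPM in non-microglia, where Fcrls and Trem2 had no count in any library. Of 52 rod, cone, Müller glia, bipolar, amacrine and ganglion cell markers, 24 lay in microglia under 5% of their non-microglia level, and their sum in single microglia libraries was 0.578 to 4.08% of the non-microglia mean. The 7 Müller glia markers among them were highest in GFP microglia 2 (547 CPM), GFP microglia 5 (433 CPM) and TGFB1 microglia 6 (435 CPM), against 90.9 to 215 CPM in the other 11 microglia libraries. The 5% limit and the values of these 24 markers, the 7 included, used library totals without TMM. The other 28 markers lay above this limit: all 8 ganglion cell, 7 of 8 amacrine, 5 of 8 rod, 3 of 10 bipolar, 3 of 10 Müller glia (Apoe, Glul and Vim) and 2 of 8 cone markers (Pde6h and Gngt2). The summed ganglion cell markers in microglia came to 113 to 379% of their non-microglia level. Endogenous and transgenic transcripts of Tgfb1 cannot be told apart in the table: Tgfb1 had no count in either GFP non-microglia library, 131 and 151 CPM in TGFB1 non-microglia, 8.71 to 15.9 CPM in GFP microglia and 9.18 to 25.7 CPM in TGFB1 microglia.

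Microglia held more RNA for Hk2, Hk3, Pfkfb3, Pfkfb4, Slc16a3, Pdk1 and the pentose phosphate enzymes, and less for Slc2a1, Hk1, Aldoc, Eno1, Eno2 and Slc16a1. In GFP retinas 13 of the 34 genes were higher in microglia and 16 lower (edgeR quasi-likelihood test, Benjamini-Hochberg adjusted p under 0.05), which is 85.3% against 64.2% of all 15321 genes tested. In TGFB1 retinas 13 were higher and 19 lower, 94.1% against 65.2% of all genes tested. The same 12 genes were higher in both, and the same 16 were lower in both. All 4 pentose phosphate genes and both Pfkfb3 and Pfkfb4 were among the 12. Of the 19 genes from hexokinase to pyruvate kinase, Pfkfb3 and Pfkfb4 included, 5 were higher and 11 lower in GFP retinas. Of all genes tested, 29.9% were higher and 34.2% lower there. The median log2 fold change of the 34 genes was -0.24 in GFP retinas and -0.44 in TGFB1 retinas, against -0.06 and -0.04 over all genes. The median size of the change, without its sign, was 1.79 and 1.93 for the 34 genes and 1.06 and 1.08 for all genes. A positive log2 fold change was found for 16 of the 34 genes in GFP and 15 in TGFB1 retinas, 47.1% and 44.1% against 48.0% and 48.7% of all genes. The fractions did not overlap for 30 and 31 of the 34 genes, against 63.4% and 64.5% of all genes.

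These counts rest on TMM scaling, which gave factors of 0.884 to 1.002 to microglia and 1.29 to 1.32 to non-microglia. With library totals alone the median of all genes moved by -0.50 in GFP and -0.48 in TGFB1 retinas on the log2 scale. The calls over all genes then changed from 4585 higher and 5245 lower to 3119 and 7531 in GFP retinas, and from 4723 and 5264 to 3232 and 7363 in TGFB1 retinas. The 34 genes gave 10 higher and 21 lower in both. In bulk libraries a gene carried by fewer cells and a gene with less RNA per cell cannot be told apart.

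**Figure D1:**
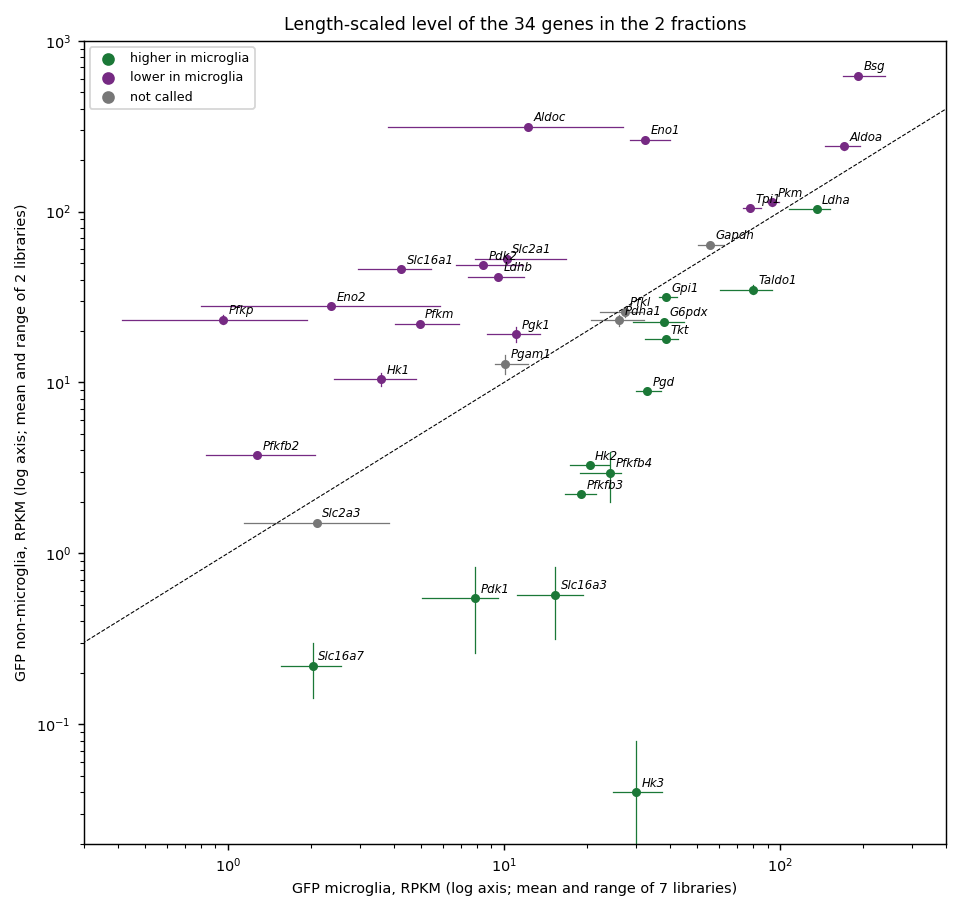
Length-scaled level (RPKM, counts scaled to exon length and library size) of the 34 genes in GFP microglia (horizontal, log axis, mean and range of 7 libraries) and GFP non-microglia (vertical, log axis, mean and range of 2 libraries), coloured by the call, with equal levels on the dashed line. Hk3, Slc16a3, Pdk1 and Slc16a7 lie farthest below the line and Aldoc and Pfkp farthest above it, and the lower end of the Hk3 range is a library without a count, drawn at the edge of the axis.

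**Figure D2:**
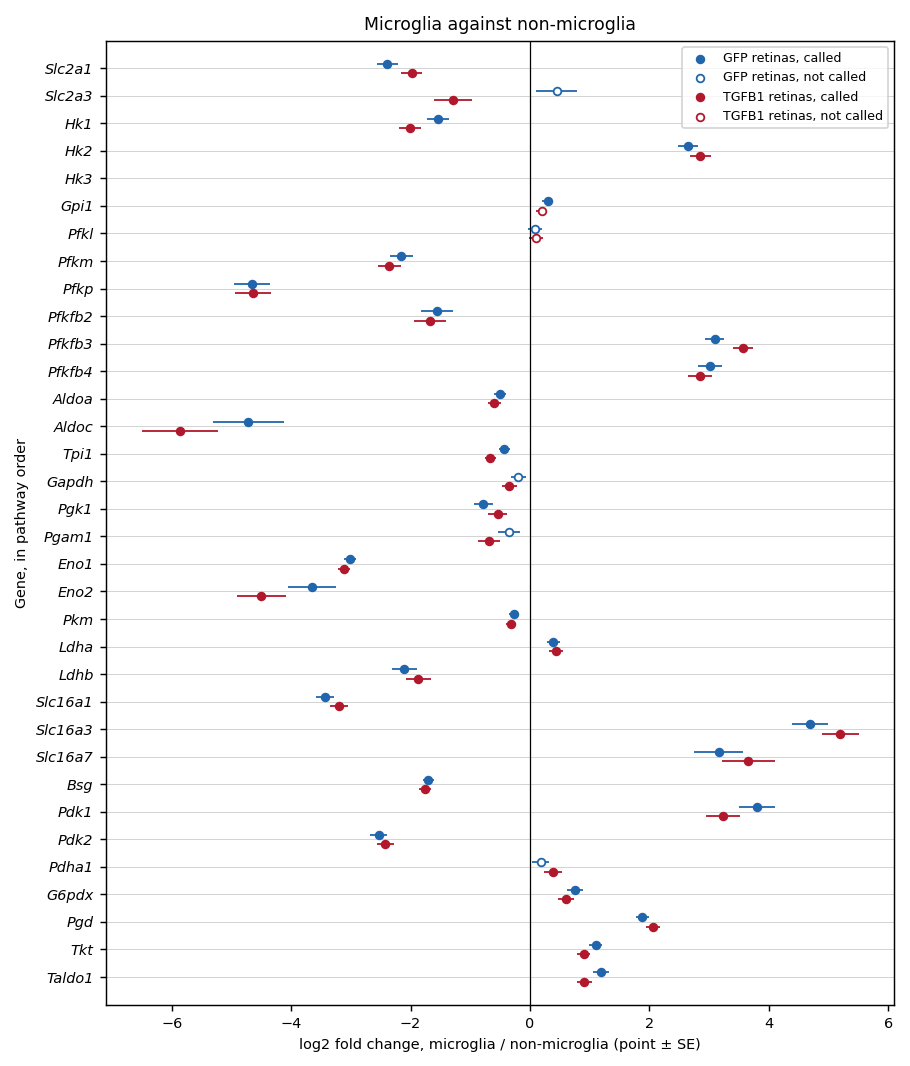
Log2 fold change of microglia over non-microglia, with its SE, for each gene in pathway order, in GFP retinas (blue) and TGFB1 retinas (red), filled where the adjusted p was under 0.05. Hk3 is left out, because non-microglia held a single count of it, and for 32 of the 33 genes drawn the values in both kinds of retina lie on the same side of 0, Slc2a3 being the exception.

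Promoter sequence is shown for 4 genes with large excess in microglia (Hk2, Hk3, Slc16a3 and Pdk1) and for 2 with large excess in the other cells (Slc16a1 and Eno1), as examples of both directions. Each line gives the 250 bases before the annotated start from RefSeq, build GRCm38.p6, read 5′ to 3′ on the strand of the gene. Capitals mark ACGTG and GCGTG and their reverse complements, the core letters of the hypoxia response element. The windows lie at chr6:82774455-82774704, minus strand (Hk2), chr13:55021386-55021635, minus strand (Hk3), chr11:120948817-120949066, plus strand (Slc16a3), chr2:71872974-71873223, plus strand (Pdk1, window 1), chr3:104638414-104638663, plus strand (Slc16a1) and chr4:150236458-150236707, plus strand (Eno1, window 1).
Hk2: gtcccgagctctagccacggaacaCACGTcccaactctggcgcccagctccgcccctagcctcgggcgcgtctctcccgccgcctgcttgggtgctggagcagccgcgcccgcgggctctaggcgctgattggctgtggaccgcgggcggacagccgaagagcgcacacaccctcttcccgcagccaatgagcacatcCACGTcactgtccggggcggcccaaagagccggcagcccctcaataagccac
Hk3: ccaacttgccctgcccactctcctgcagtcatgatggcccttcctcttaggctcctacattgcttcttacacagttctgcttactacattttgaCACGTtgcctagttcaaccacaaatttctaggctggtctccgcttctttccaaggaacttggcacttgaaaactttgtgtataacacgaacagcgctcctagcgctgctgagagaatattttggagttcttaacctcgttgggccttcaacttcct
Slc16a3: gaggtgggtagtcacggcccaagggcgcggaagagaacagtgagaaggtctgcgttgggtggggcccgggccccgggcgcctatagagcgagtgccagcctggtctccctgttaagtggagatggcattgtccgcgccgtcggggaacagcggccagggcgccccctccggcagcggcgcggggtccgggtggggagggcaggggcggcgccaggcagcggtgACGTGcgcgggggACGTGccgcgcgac
Pdk1: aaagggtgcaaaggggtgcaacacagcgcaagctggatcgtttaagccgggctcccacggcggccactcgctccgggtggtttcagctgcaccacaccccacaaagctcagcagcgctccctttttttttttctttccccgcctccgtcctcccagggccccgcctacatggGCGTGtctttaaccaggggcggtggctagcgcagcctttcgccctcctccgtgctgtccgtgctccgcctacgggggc
Slc16a1: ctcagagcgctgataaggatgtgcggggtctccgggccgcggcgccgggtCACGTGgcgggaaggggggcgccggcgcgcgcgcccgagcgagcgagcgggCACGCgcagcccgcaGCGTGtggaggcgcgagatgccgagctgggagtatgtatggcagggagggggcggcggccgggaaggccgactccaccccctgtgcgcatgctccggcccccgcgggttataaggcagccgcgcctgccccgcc
Eno1: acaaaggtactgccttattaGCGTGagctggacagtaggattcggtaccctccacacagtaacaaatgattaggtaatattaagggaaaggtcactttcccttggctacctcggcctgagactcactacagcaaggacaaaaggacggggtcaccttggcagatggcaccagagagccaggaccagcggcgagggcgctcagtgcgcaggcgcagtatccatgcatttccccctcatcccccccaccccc

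Windows were found for 31 of the 34 symbols, 48 windows in all, and not for Slc16a7, Slc2a3 and Bsg. At least 1 of these motifs, on either strand, stood in 79.2% of the 48 windows against 38.6% of 32851 windows of all genes, with a median GC content of 60.0 against 52.4%. By gene, they stood in 11 of 12 genes that were higher in microglia, in 13 of 15 that were lower and in 4 of 4 that were not called in GFP retinas. No share by gene over all genes is given, and genes with several windows have more chances of a match. Windows of the same gene can overlap, as for Eno1, Aldoa and Pfkm. CACGTG, an E box that contains ACGTG, stood in 12.5% against 6.02% of windows, and GAGGAA, the core letters bound by PU.1, in 25% against 23.3%. A match of these letters is a description of the sequence and not a measured site.

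Between Slc2a1 and Slc2a3, Slc2a1 (GLUT1) was the leading form per length in both fractions, and it was lower in microglia. Slc2a5, with 107 CPM in GFP microglia, and Slc2a6, with 46.8 CPM there, were not part of this ranking. Slc2a1 had a lowest, median and highest level of 27.5, 32.5 and 58.9 CPM in the 7 GFP microglia libraries and of 199 and 173 CPM in the 2 GFP non-microglia libraries. No microglia library reached the non-microglia level, and the log2 fold change was -2.39 ± 0.18 (SE), adjusted p = 2.87e-11, and -1.98 ± 0.18 (SE) in TGFB1 retinas. Slc2a3 (GLUT3), a high-affinity neuronal transporter also found in leukocytes, ran at 8.28, 13.6 and 27.7 CPM in GFP microglia against 11.2 and 10.8 CPM, and these ranges overlapped (log2 fold change 0.45 ± 0.34 (SE), adjusted p = 0.258). In TGFB1 retinas it was 4.78, 8.47 and 11.2 CPM in microglia against 20.2 and 20.1 CPM, without overlap (-1.30 ± 0.32 (SE), adjusted p = 0.001). Per length, Slc2a3 made up 12.3 to 22.3% of the summed RPKM of both transporters in GFP microglia and 2.65 to 2.93% in GFP non-microglia.

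Hexokinases, which trap glucose in the cell as glucose 6-phosphate, differed in both directions. Hk3, the hexokinase known from myeloid cells, had 91.2, 111 and 137 CPM in GFP microglia and 86.8, 96.6 and 106 CPM in TGFB1 microglia, while the 4 non-microglia libraries together held 1 count of it. Its level in GFP microglia was 705 times that in GFP non-microglia, with a 95% counting interval of 126.5 to 27843 that covers counting error of this 1 count only. In TGFB1 retinas it was at least 98.4-fold higher, against a floor of 3 counts per library. Hk2, the inducible hexokinase bound to mitochondria, had 104, 122 and 143 CPM in GFP microglia against 18.8 and 20.2 CPM in GFP non-microglia, a log2 fold change of 2.64 ± 0.17 (SE), adjusted p = 1.29e-12. Hk1, the housekeeping form of brain and retina, went the other way, with 20.6, 27.6 and 40.9 CPM against 96.6 and 81.8 CPM (-1.54 ± 0.19 (SE), adjusted p = 1.01e-07). None of these ranges overlapped between the fractions. Per length, Hk3 took 55.5% and Hk2 37.9% of the summed RPKM of Hk1, Hk2 and Hk3 in GFP microglia, whereas Hk1 took 75.9% in GFP non-microglia. Hkdc1, with 70.99 CPM in GFP non-microglia, was not part of this sum. The summed RPKM of Hk1, Hk2 and Hk3 was 54.0 ± 5.23 (SD, n = 7) in GFP microglia and 13.8 ± 1.12 (SD, n = 2) in GFP non-microglia.

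At the phosphofructokinase step, which commits sugar to glycolysis, Pfkl was not called while the other subunits were lower in microglia. Pfkl, the liver-type subunit, had 149, 182 and 211 CPM in GFP microglia and 185 and 161 CPM in GFP non-microglia, with overlapping ranges and no call in either kind of retina (log2 fold change 0.08 ± 0.12 (SE), adjusted p = 0.587). Pfkp, the platelet-type subunit, had 5.52, 12.04 and 25.9 CPM against 293 and 331 CPM (-4.65 ± 0.30 (SE), adjusted p = 6.81e-10), and Pfkm, the muscle-type subunit, 13.5, 14.5 and 22.9 CPM against 71.96 and 75.8 CPM (-2.15 ± 0.19 (SE), adjusted p = 3.74e-10). Accordingly Pfkl made up 82.1% of the family per length in GFP microglia, while the 3 subunits shared the total in GFP non-microglia at 36.4% Pfkl, 31.01% Pfkm and 32.6% Pfkp. With library totals in place of TMM, Pfkl was called lower in microglia in both kinds of retina (-0.43 and -0.37).

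The bifunctional enzymes that set fructose 2,6-bisphosphate, the activator of phosphofructokinase, also differed in both directions. Pfkfb3, the form with the strongest kinase activity, had 126, 145 and 163 CPM in GFP microglia against 16.7 and 16.8 CPM (3.09 ± 0.16 (SE), adjusted p = 2.55e-14). Pfkfb4 had 91.99, 124 and 129 CPM against 19.1 and 9.77 CPM (3.01 ± 0.20 (SE), adjusted p = 2.49e-12). Pfkfb2, the heart-type form, had 6.02, 8.19 and 15.01 CPM against 26.1 and 28.3 CPM (-1.56 ± 0.27 (SE), adjusted p = 1.81e-05). Without GFP non-microglia 1 the log2 fold change of Pfkfb4 was 3.63. No range overlapped, and every microglia library held more Pfkfb3 and Pfkfb4 and less Pfkfb2 than every non-microglia library. The summed RPKM of the 3 genes was 44.5 ± 3.37 (SD, n = 7) in GFP microglia and 8.93 ± 1.13 (SD, n = 2) in GFP non-microglia. A read-through transcript gene, Gm29427, shares sequence with Pfkfb2 and held 37.4% as many counts, so reads of Pfkfb2 may be split or counted for both.

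From aldolase to pyruvate kinase 7 of 9 genes were lower in microglia in GFP retinas and 9 of 9 in TGFB1 retinas, against 34.2% and 34.4% of all genes tested. Aldoc, the aldolase of astrocytes and Müller glia, had 12.3, 19.8 and 88.1 CPM in GFP microglia against 1030.4 and 1022 CPM (-4.72 ± 0.60 (SE), adjusted p = 5.48e-06). The Aldoc value was -5.33 by limma voom and -5.50 without GFP microglia 2 and 5 and TGFB1 microglia 6. Aldoa, the general form, differed less, with 424, 496 and 566 CPM against 669 and 737 CPM (-0.51 ± 0.10 (SE), adjusted p = 0.000179). Per length, Aldoa was 93.3% of the aldolase total in GFP microglia and 43.4% in GFP non-microglia, and with the longest transcript as length Aldoa led in both.

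Eno1, the general form, had 154, 165 and 215 CPM in GFP microglia against 1402 and 1425 CPM (-3.02 ± 0.09 (SE), adjusted p = 7.37e-19), and Eno2, the neuronal form, 3.76, 8.74 and 27.7 CPM against 134 and 129 CPM (-3.65 ± 0.40 (SE), adjusted p = 6.13e-07). Eno1 and Eno2 were both lower, and Eno1 stayed the leading form of this pair at 93.6% and 90.4% per length. The summed RPKM of Eno1 and Eno2 was 34.9 ± 5.61 (SD, n = 7) in GFP microglia and 290.7 ± 2.33 (SD, n = 2) in GFP non-microglia. Eno3, with 18.5 CPM in GFP microglia and 8.53 CPM in GFP non-microglia, was not part of this sum. Eno1b, a near-identical copy, had a median of 19.0% as many counts as Eno1 in microglia and 18.8% in non-microglia, so the counts of this pair are uncertain to the same degree in both fractions.

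The single-gene steps between and after them had smaller differences. Tpi1 (triosephosphate isomerase) had a log2 fold change of -0.43 ± 0.09 (SE), Pgk1 (phosphoglycerate kinase) -0.79 ± 0.16 (SE) and Pkm (pyruvate kinase) -0.28 ± 0.08 (SE) in GFP retinas, all called lower in microglia. Gapdh (glyceraldehyde phosphate dehydrogenase, -0.20 ± 0.13 (SE), adjusted p = 0.179) and Pgam1 (phosphoglycerate mutase, -0.35 ± 0.19 (SE), adjusted p = 0.0996) were not called in GFP retinas and were lower in TGFB1 retinas (-0.35 and -0.68). By DESeq2 both were called lower in GFP retinas too. Gpi1 (glucose phosphate isomerase) was slightly higher in microglia in GFP retinas (0.30 ± 0.09 (SE), adjusted p = 0.00828). With library totals this call was lost, and Gpi1 was called lower in GFP (-0.21, adjusted p = 0.0418) and in TGFB1 retinas (-0.29, adjusted p = 0.00639). The Gpi1 call was also lost by DESeq2 (0.18, adjusted p = 0.0775), with RLE size factors (0.18, adjusted p = 0.0947), without the filter (0.27, adjusted p = 0.136) and without GFP non-microglia 2 (0.30, adjusted p = 0.057), and its adjusted p over all alternatives ran from 0.00194 to 0.136. The Pkm call in GFP retinas was lost without GFP non-microglia 1 (-0.16, adjusted p = 0.238, from 5.99e-09 to 0.238 over all alternatives), and the Gapdh and Pgk1 calls in TGFB1 retinas were lost without TGFB1 non-microglia 1 (-0.33, adjusted p = 0.109, from 1.62e-07 to 0.131 over all alternatives, and -0.45, adjusted p = 0.0945, from 5.81e-06 to 0.0945 over all alternatives). Without TGFB1 non-microglia 2 the Gapdh call was lost as well (-0.31, adjusted p = 0.131). Gapdh has 79 copy genes with at least 95% identity, 77 of them pseudogenes, which held 50.6% as many counts as Gapdh itself, and Gm49759 held 16.8% as many as Pkm, so both levels are uncertain.

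Lactate genes also separated by isoform. Ldha, whose enzyme favours lactate production, had 356, 462 and 501 CPM in GFP microglia against 348 and 337 CPM (0.39 ± 0.11 (SE), adjusted p = 0.00308). Ldhb, whose enzyme favours lactate oxidation, had 11.6, 14.7 and 18.5 CPM against 64.3 and 66.003 CPM (-2.11 ± 0.21 (SE), adjusted p = 3.2e-09). Ldha did not overlap between the fractions in either kind of retina, but with library totals its log2 fold change was -0.11 in GFP and -0.04 in TGFB1 retinas, while that of Ldhb kept its sign. Per length, Ldha was 93.3% of the total in GFP microglia and 71.4% in GFP non-microglia, and this share does not depend on the scaling. The summed RPKM of both genes was 145 ± 13.3 (SD, n = 7) against 145 ± 1.66 (SD, n = 2).

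Monocarboxylate transporters, which carry lactate across the membrane, differed in both directions. Slc16a3 (MCT4), the low-affinity exporter of glycolytic cells, had 59.1, 82.9 and 103 CPM in GFP microglia against 4.41 and 1.68 CPM (4.69 ± 0.30 (SE), adjusted p = 7.59e-13). Slc16a1 (MCT1), the general carrier, had 13.1, 17.9 and 24.1 CPM against 204 and 203 CPM (-3.44 ± 0.15 (SE), adjusted p = 4.54e-16). Slc16a7 (MCT2), a high-affinity carrier, had 18.4, 22.99 and 30.3 CPM against 3.52 and 1.68 CPM (3.16 ± 0.41 (SE), adjusted p = 3.39e-07). The non-microglia values of Slc16a3 and Slc16a7 are low and unequal, and without GFP non-microglia 1 the log2 fold changes were 5.60 and 3.83. Slc16a3 and Slc16a7 were higher in all microglia libraries, and Slc16a1 was lower in all of them. Per length, Slc16a3 made up 70.9% of the 3 transporters in GFP microglia and 1.22% in GFP non-microglia, where Slc16a1 made up 98.3%. Bsg (basigin), the chaperone of MCT1 and MCT4, was lower in microglia, at 305, 342 and 435 CPM against 1177 and 1086 CPM (-1.70 ± 0.10 (SE), adjusted p = 1.18e-13).

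At the mitochondrial entry of pyruvate, Pdk1 and Pdk2, kinases that switch off pyruvate dehydrogenase, differed in opposite directions. Pdk1 had 39.2, 62.1 and 74.2 CPM in GFP microglia against 6.46 and 2.02 CPM (3.80 ± 0.30 (SE), adjusted p = 6.04e-11), and Pdk2 had 21.2, 24.7 and 37.1 CPM against 150.4 and 156 CPM (-2.54 ± 0.14 (SE), adjusted p = 3.73e-14). Microglia thus held both at near-equal RPKM, with Pdk1 at 48.4% of the pair, while in GFP non-microglia Pdk2 was 98.9%. Pdk3, with 27.0 CPM in GFP microglia and 13.9 CPM in GFP non-microglia, was not part of this pair. The size of the Pdk1 difference rests on 2 unequal non-microglia libraries, and without GFP non-microglia 1 its log2 fold change was 4.93. Pdha1, a subunit of the dehydrogenase itself, differed little, with 77.2, 102 and 119.7 CPM against 92.8 and 80.1 CPM (0.18 ± 0.15 (SE), adjusted p = 0.305). It was called higher in TGFB1 retinas (0.38 ± 0.15 (SE), adjusted p = 0.0274), a call lost without TGFB1 microglia 5 (0.33, adjusted p = 0.0501, from 0.0106 to 0.534 over all alternatives), without TGFB1 non-microglia 1 (0.34, adjusted p = 0.168) or 2 (0.48, adjusted p = 0.0532), and reversed to -0.10 with library totals. It was lost by DESeq2 (0.25, adjusted p = 0.186), with RLE size factors (0.26, adjusted p = 0.128) and without the filter (0.35, adjusted p = 0.0806) as well. In GFP retinas Pdha1 was called lower with library totals (-0.33, adjusted p = 0.0332).

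All 4 pentose phosphate genes were higher in microglia. Pgd (6-phosphogluconate dehydrogenase), which yields NADPH, had 194, 208 and 239 CPM in GFP microglia against 56.1 and 58.9 CPM (1.88 ± 0.12 (SE), adjusted p = 4.58e-13). G6pdx, the rate-limiting glucose 6-phosphate dehydrogenase, had 90.1, 116 and 138 CPM against 67.9 and 71.7 CPM (0.75 ± 0.14 (SE), adjusted p = 4.22e-05). In the branch that returns pentoses to glycolysis, Tkt (transketolase) had 238, 295 and 313 CPM against 136 and 128 CPM (1.10 ± 0.11 (SE), adjusted p = 4.72e-09), and Taldo1 (transaldolase) 132, 175 and 203 CPM against 71.4 and 80.5 CPM (1.19 ± 0.13 (SE), adjusted p = 1.56e-08). No range overlapped between the fractions for any of these genes, and each was called in TGFB1 retinas as well (2.05, 0.60, 0.90 and 0.91). With library totals G6pdx was not called (0.25, adjusted p = 0.0844, from 3.91e-06 to 0.0844 over all alternatives, in GFP retinas and 0.12, adjusted p = 0.4, from 5.19e-05 to 0.4 over all alternatives, in TGFB1 retinas). G6pdx, Pgk1 and Pdha1 are X-linked, and Xist exceeded 20 counts in 3 libraries of each microglia group and in no non-microglia library. Without these 6 libraries, 13 genes were higher and 16 lower in GFP retinas, and 13 and 18 in TGFB1 retinas, where the Gapdh call was lost (-0.21, adjusted p = 0.0659).

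**Figure D3:**
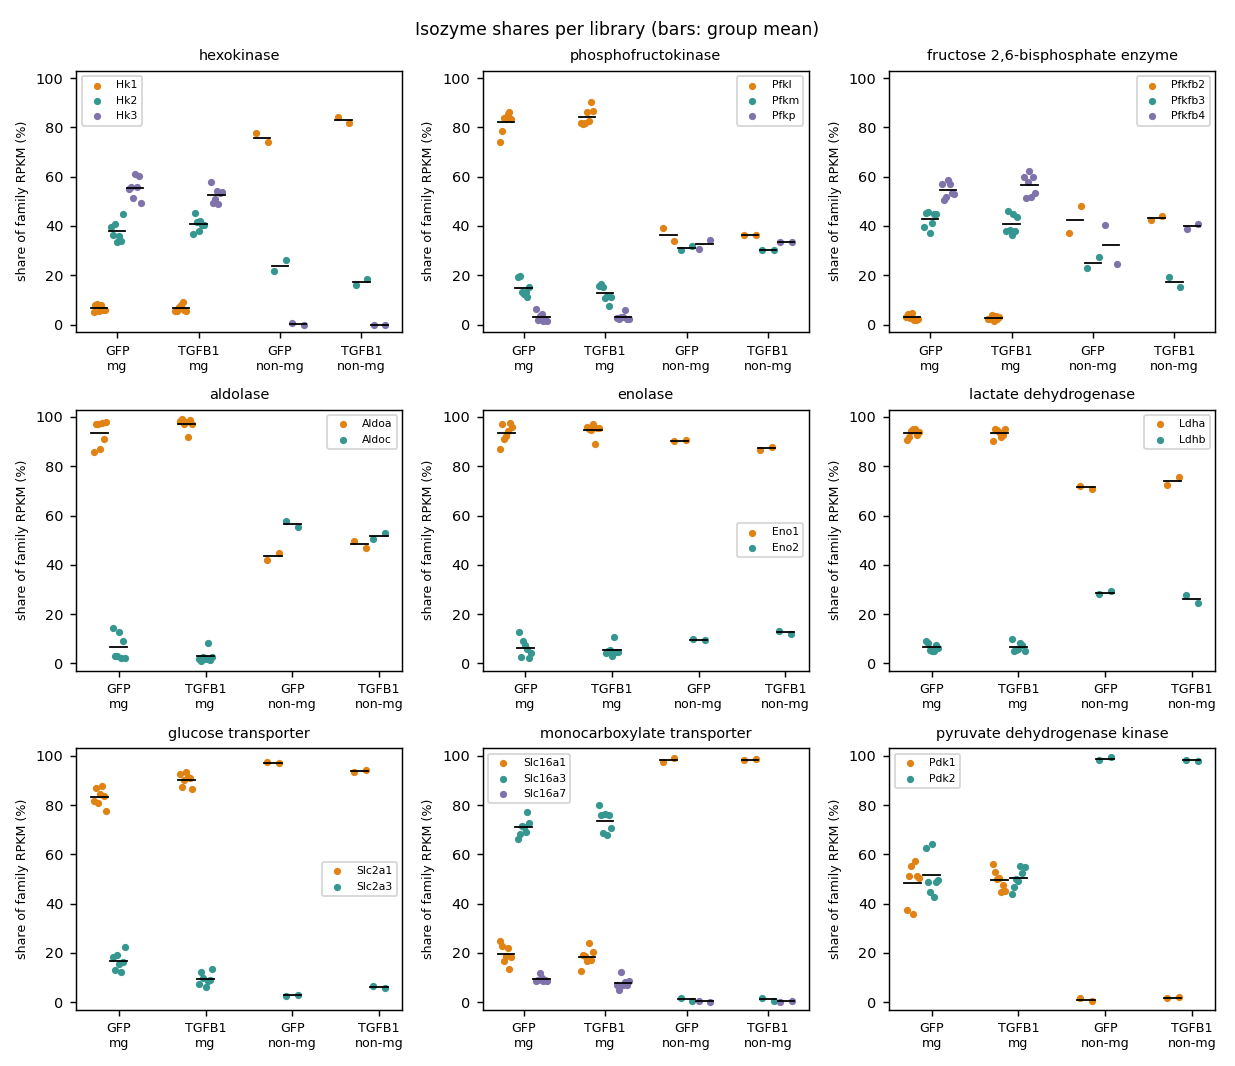
Share of each isozyme in the summed RPKM of its family (vertical, percent) in every library of the 4 groups (mg, microglia), with a bar at the group mean. The leading isozyme differs between the fractions for hexokinase, the fructose 2,6-bisphosphate enzymes, aldolase and the monocarboxylate transporters, and for Pfkl, Ldha and Pdk1 the share in all microglia libraries lies above that in all non-microglia libraries.

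Over 9 isozyme families, the leading isozyme per length differed between the fractions in 4, in GFP and in TGFB1 retinas alike: Hk3 against Hk1, Pfkfb4 against Pfkfb2, Aldoa against Aldoc, and Slc16a3 against Slc16a1. This count of 4 moved with single libraries and with the length used. Without GFP microglia 2 or 5, Pdk1 led in microglia. Without GFP non-microglia 1, Pfkp led in non-microglia, and without GFP non-microglia 2, Pfkfb4 led in both fractions. Unscaled counts gave 6 families, with Hk2 ahead of Hk3 and Pfkfb3 ahead of Pfkfb4 in microglia.

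In microglia the lowest of the 34 genes lay near the level of the 24 low markers of other retinal cells. The median microglia level, as a share of the non-microglia mean, was 1.63% for Aldoc (0.509 to 8.83%), 3.61% for Pfkp (1.74 to 8.16%) and 4.41% for Eno2 (2.46 to 18.1%), near the 0.578 to 4.08% of the 24 markers. The marker range used library totals without TMM, which gives lower percentages than the TMM scale of the gene values. The median microglia level was 9.46% for Slc16a1, 11.8% for Eno1 and 20.6% for Slc2a1, above the marker range in every microglia library. That range is low by choice, because only markers under 5% entered it. Markers left out included Vim (5.85%), Prkca (10.6%), Glul (11.5%) and Grik1 (14.8%), so the range sets no upper limit for RNA of other cells. Aldoc was highest in GFP microglia 5 (88.1 CPM), GFP microglia 2 (80.1 CPM) and TGFB1 microglia 6 (53.6 CPM), the 3 libraries with the most Müller glia marker RNA. Without these 3 libraries Aldoc ran from 12.3 to 49.3 CPM in GFP and from 5.08 to 19.0 CPM in TGFB1 microglia, and the counts of 13 higher and 16 lower, and of 13 and 19, did not change. In the other direction, the 10 microglia markers in non-microglia summed to 0.137% of their microglia level. The part of RNA carried over between fractions in the single levels was not tested.

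**Figure D4:**
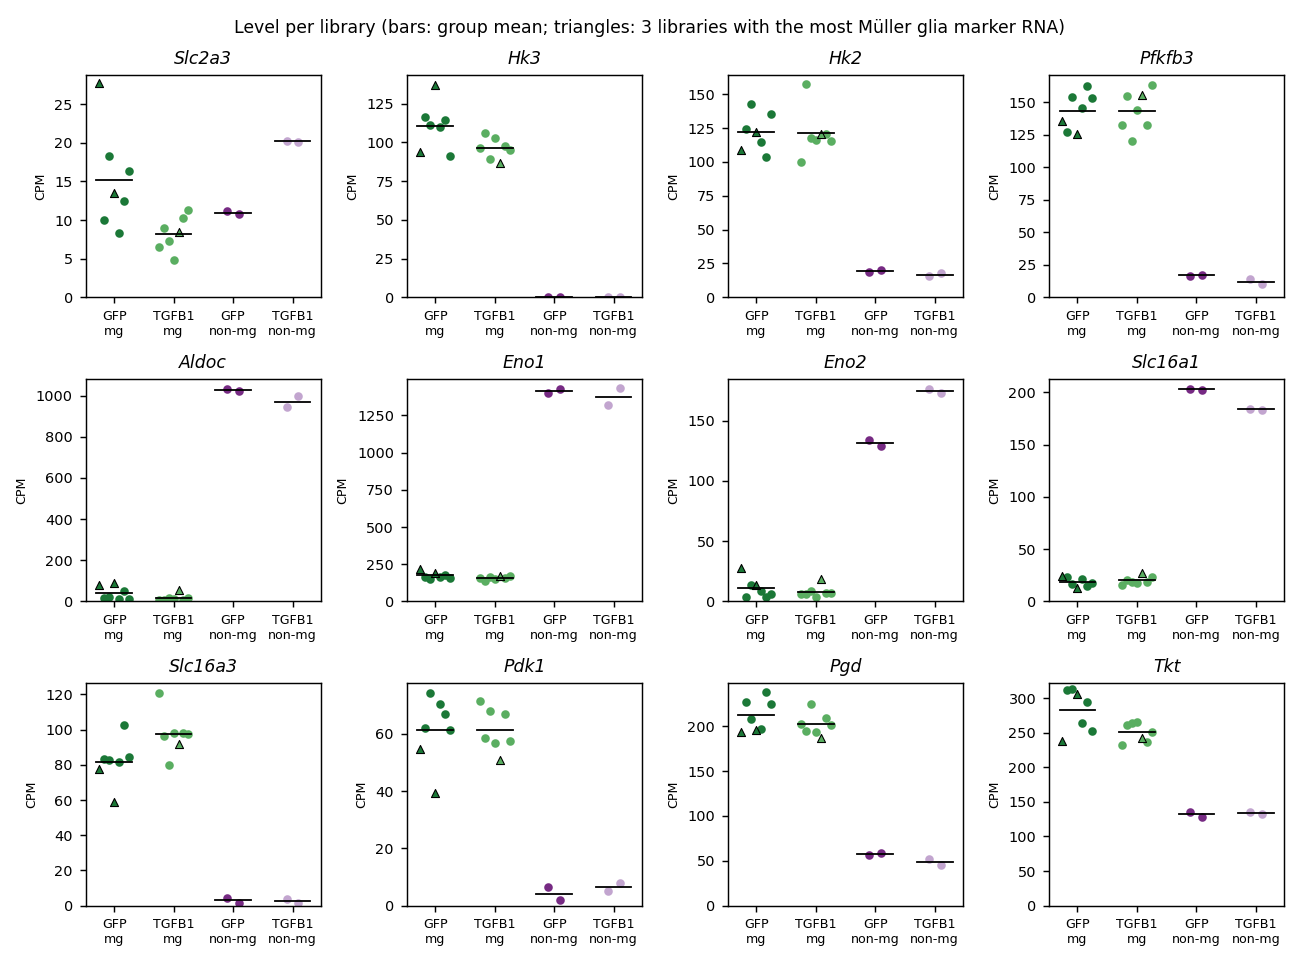
CPM of 12 genes in every library of the 4 groups (vertical, linear from 0; mg, microglia), with a bar at the group mean and triangles for GFP microglia 2 and 5 and TGFB1 microglia 6. Hk3, Hk2, Pfkfb3, Slc16a3, Pdk1, Pgd and Tkt are higher in every microglia library than in every non-microglia library, Aldoc, Eno1, Eno2 and Slc16a1 lower, and Slc2a3 overlaps.

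Genes around the 34 followed the same division in part. Of 114 other genes in 7 lists, the list of further pentose phosphate genes had 4 of 8 tested higher in microglia and none lower in GFP retinas, against 29.9% and 34.2% of all genes tested. Prps2, which makes phosphoribosyl pyrophosphate from the pathway's product, had 68.8 ± 13.6 CPM in the 7 microglia libraries and 8.22 ± 4.57 CPM in the 2 non-microglia libraries (SD), a log2 fold change of 3.08 ± 0.33 (SE), adjusted p = 5.74e-08. H6pd, the endoplasmic reticulum form of the first enzyme, was also higher (2.06 ± 0.44 (SE), adjusted p = 0.000213), and so was Pgls, which follows it (0.63 ± 0.19 (SE), adjusted p = 0.00588).

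Of 15 further glucose and monocarboxylate carriers tested, 7 were higher and 7 lower in GFP retinas, against 29.9% and 34.2% of all genes tested. Slc2a5 (GLUT5), a fructose carrier used as a marker of microglia, had 107 ± 22.95 CPM in the 7 microglia libraries and 2.48 ± 0.648 CPM in the 2 non-microglia libraries (SD) (5.38 ± 0.34 (SE), adjusted p = 6.72e-12). Slc2a6 (4.49 ± 0.36 (SE), adjusted p = 6.04e-11), a lysosomal hexose carrier of macrophages, and Slc16a6 (3.85 ± 0.22 (SE), adjusted p = 8.01e-14) were higher too. Lower were Mfsd2a (-5.17 ± 0.49 (SE), adjusted p = 1.43e-09), a lipid carrier of the blood-retina barrier, and Slc2a4 (GLUT4), which had no count in GFP microglia and 32 counts in GFP non-microglia.

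Of 14 glycogen genes tested, 7 were lower in microglia and 2 higher in GFP retinas, against 34.2% and 29.9% of all genes tested. Pygb (-2.24 ± 0.10 (SE), adjusted p = 6.67e-16) and Pygm (-4.33 ± 0.35 (SE), adjusted p = 1.41e-10), the brain and muscle glycogen phosphorylases, and Gbe1, the branching enzyme (-3.27 ± 0.21 (SE), adjusted p = 4.69e-11), led those lower. Phka2 (1.65 ± 0.15 (SE), adjusted p = 9.12e-10) and Phkg2 (0.46 ± 0.18 (SE), adjusted p = 0.0259), subunits of phosphorylase kinase, were higher. Among 16 further glycolysis genes tested, 3 were higher and 7 lower, against 29.9% and 34.2% of all genes tested. The 3 higher were Eno3 (1.10 ± 0.30 (SE), adjusted p = 0.00256), Pgm2 (0.92 ± 0.27 (SE), adjusted p = 0.00529) and Minpp1 (0.65 ± 0.26 (SE), adjusted p = 0.0333). Hkdc1, a further hexokinase-like gene, had the smallest p of those lower, with 1.29 ± 1.52 CPM in the 7 microglia libraries and 70.99 ± 1.52 CPM in the 2 non-microglia libraries (SD). Bpgm (-2.06 ± 0.24 (SE), adjusted p = 5.16e-08), which makes 2,3-bisphosphoglycerate, and Pgm1 (-1.31 ± 0.17 (SE), adjusted p = 3e-07) followed.

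Of 11 genes of pyruvate entry tested, 1 was higher in GFP retinas, Pdk3 (0.98 ± 0.26 (SE), adjusted p = 0.00183), and 5 were lower, against 29.9% and 34.2% of all genes tested. Pcx, which carboxylates pyruvate (-2.004 ± 0.26 (SE), adjusted p = 5.34e-07), and the dehydrogenase subunits Pdhb (-0.90 ± 0.13 (SE), adjusted p = 1.11e-06) and Pdhx (-1.06 ± 0.18 (SE), adjusted p = 1.39e-05) led these. Of 17 genes of the hypoxia pathway tested, 5 were higher and 4 lower, which does not exceed the 29.9% and 34.2% of all genes tested. Myc (3.28 ± 0.21 (SE), adjusted p = 9.76e-13), P4ha1 (1.31 ± 0.12 (SE), adjusted p = 1.42e-09) and Txnip (1.998 ± 0.26 (SE), adjusted p = 2.9e-06) were higher, and Mxi1 (-1.84 ± 0.18 (SE), adjusted p = 2.41e-09), Ndrg1 (-4.93 ± 0.58 (SE), adjusted p = 1.2e-06) and Epas1, which encodes HIF-2α (-4.53 ± 0.51 (SE), adjusted p = 1.23e-06), were lower. Of 12 genes of the NRF2 pathway, which acts on pentose phosphate genes among others, 2 were higher and 7 lower, against the same shares of all genes. Nfe2l2 itself (1.35 ± 0.12 (SE), adjusted p = 5.18e-10) and Idh1 (0.53 ± 0.14 (SE), adjusted p = 0.00254) were higher. Slc7a11, the cystine carrier (-5.63 ± 0.24 (SE), adjusted p = 2.3e-16), led those lower. Me1, the cytosolic malic enzyme, followed (-3.07 ± 0.51 (SE), adjusted p = 1.06e-05), and Nqo1 had no count in GFP microglia and 36 counts in GFP non-microglia. In TGFB1 retinas the same rule for naming added Srxn1 (-1.94 ± 0.32 (SE), adjusted p = 1.02e-05) and Pdp1 (-1.52 ± 0.27 (SE), adjusted p = 2.25e-05), both lower, Slc16a8, lower with 48 counts in the 2 non-microglia libraries, and Tigar and Rpia, higher with 4 and 2 counts there.

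TGFB1 delivery was not followed by a called change of any of the 34 genes in microglia. By edgeR 0 of 34 genes passed, against 0.31% of 10970 genes tested, 0.237% higher and 0.0729% lower. DESeq2 and limma voom gave 0 as well, and an unadjusted p under 0.05 was found for 4 of the genes by edgeR, 5 by DESeq2 and 3 by limma voom, against 730 of 10970, 964 of 19972 and 789 of 10970 of all genes. The groups overlapped for all 34 genes, and 0.219% of all genes did not overlap. The median log2 fold change was -0.05 for the 34 genes and 0.003 for all genes, and 12 of the 34 had a positive value against 50.7% of all genes. The median SE of the 34 log2 fold changes was 0.09.

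Slc2a3 came nearest to a call. It had 8.28, 13.6 and 27.7 CPM (lowest, median and highest) in GFP microglia and 4.78, 8.47 and 11.2 CPM in TGFB1 microglia, a log2 fold change of -0.88 ± 0.25 (SE), adjusted p = 0.228. Of the 7 GFP libraries, 5 lay above the highest TGFB1 library, and GFP microglia 2 stood highest. Without the 3 libraries with the most Müller glia marker RNA the log2 fold change was -0.68 ± 0.26 (SE), adjusted p = 0.498, and over all alternatives the adjusted p ran from 0.0567 to 0.933. As a share of the summed RPKM of Slc2a1 and Slc2a3, Slc2a3 was 12.3 to 22.3% in GFP and 6.39 to 13.6% in TGFB1 microglia. Slc2a1 had 27.5, 32.5 and 58.9 CPM in GFP against 30.5, 34.7 and 49.5 CPM in TGFB1 microglia (0.07 ± 0.16 (SE), adjusted p = 0.972).

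The other genes with an unadjusted p under 0.05 in microglia had small differences. Tkt had 238, 295 and 313 CPM in GFP and 232, 250.2 and 266 CPM in TGFB1 microglia (-0.18 ± 0.07 (SE), adjusted p = 0.481). Slc16a3 had 59.1, 82.9 and 103 CPM in GFP against 79.9, 97.8 and 121 CPM in TGFB1 microglia (0.24 ± 0.10 (SE), adjusted p = 0.63), and Hk3 91.2, 111 and 137 CPM against 86.8, 96.6 and 106 CPM (-0.21 ± 0.09 (SE), adjusted p = 0.623). In each case the ranges overlapped. Aldoc had the largest fitted value, -1.22 ± 0.64 (SE), adjusted p = 0.813, with 12.3, 19.8 and 88.1 CPM in GFP and 5.08, 13.04 and 53.6 CPM in TGFB1 microglia, and its high values lay in the libraries with Müller glia marker RNA named above and in GFP microglia 7 (49.3 CPM). The fitted values of Hk2 (-0.01 ± 0.09 (SE)), Pfkfb3 (-0.01 ± 0.08 (SE)), Ldha (0.01 ± 0.07 (SE)), Pdk1 (-0.001 ± 0.11 (SE)) and Tpi1 (-0.01 ± 0.06 (SE)) were close to 0 with small errors.

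**Figure D5:**
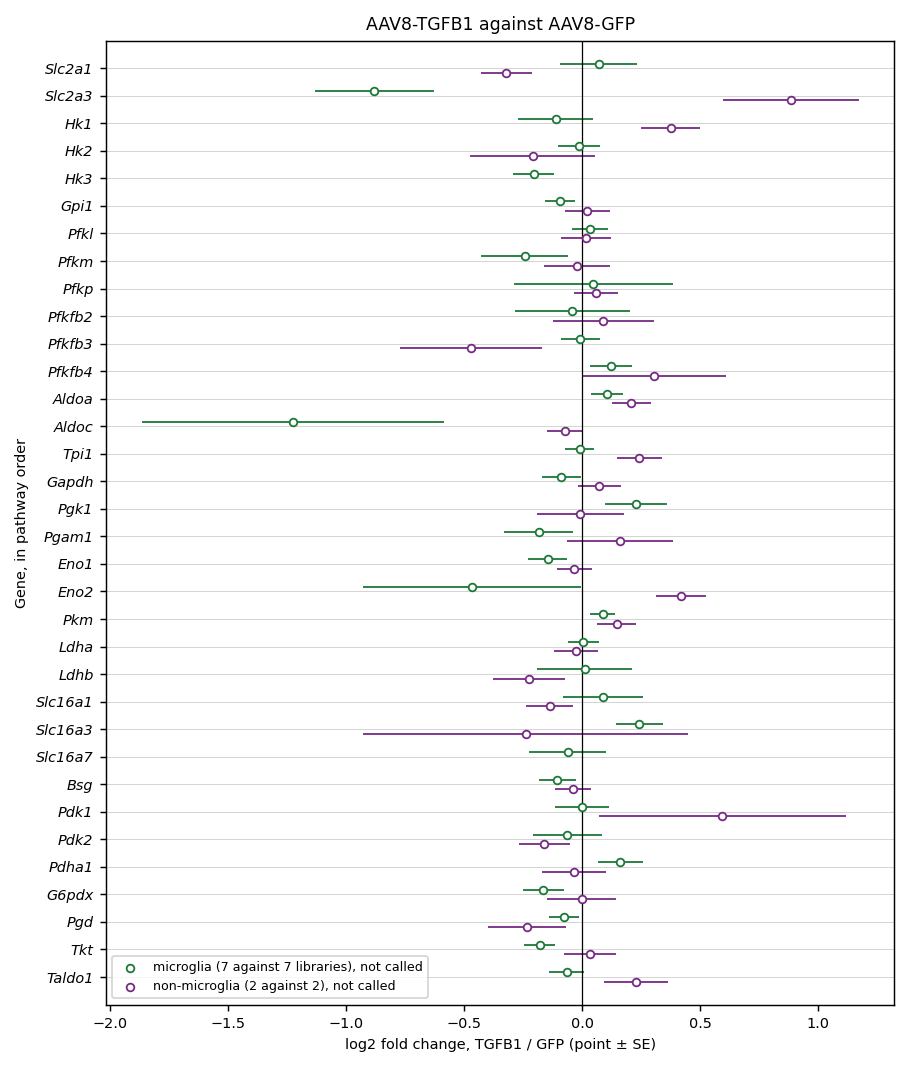
Log2 fold change of AAV8-TGFB1 over AAV8-GFP, with its SE, for each gene in pathway order, in microglia (green, 7 against 7 libraries) and non-microglia (purple, 2 against 2). All points are open because no gene was called, Hk3 and Slc16a7 were not tested in non-microglia, and Slc2a3 lies at -0.88 in microglia and 0.88 in non-microglia.

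In non-microglia, with 2 libraries a group, none of the 32 genes tested was called by edgeR, against 0.39% of 13598 genes tested, 0.338% higher and 0.0515% lower. DESeq2 and limma voom called none, DESeq2 with 24 of the genes tested, and an unadjusted p under 0.05 was found for 6, 5 and 6 genes by edgeR, DESeq2 and limma voom, against 1037 of 13598, 307 of 4336 and 1016 of 13598 of all genes. The 2 groups did not overlap for 16 of the 32 genes, 50% against 36.4% of all genes tested, and 16 had a positive log2 fold change, against 49.9% of all genes.

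Eno2 came nearest, at 134 and 129 CPM in GFP and 176 and 173 CPM in TGFB1 non-microglia (0.42 ± 0.11 (SE), adjusted p = 0.106). Slc2a3 had 11.2 and 10.8 CPM against 20.2 and 20.1 CPM (0.88 ± 0.29 (SE), adjusted p = 0.313), and Hk1 96.6 and 81.8 against 117 and 113 CPM (0.38 ± 0.12 (SE), adjusted p = 0.346). These 3 genes, of which Eno2 and Slc2a3 are known as neuronal forms, lay higher in both TGFB1 libraries. Slc2a1 lay lower in both, at 199 and 173 against 139.9 and 156 CPM (-0.32 ± 0.11 (SE), adjusted p = 0.358). Aldoa (0.21 ± 0.08 (SE), adjusted p = 0.499) and Tpi1 (0.24 ± 0.10 (SE), adjusted p = 0.515) lay higher in both. Summed marker RNA also differed between these libraries: 10 bipolar markers summed to 1425 and 1514 CPM in GFP and 2135 and 2449.5 CPM in TGFB1 non-microglia. In the same order, 8 cone markers summed to 1650.5 to 1952 and 873 to 1229 CPM. The 8 rod markers summed to 265 to 356 and 148 to 201 CPM, with Nrl at 0 in all 4. The 10 Müller glia markers summed to 18511 to 19226 and 16650 to 17322 CPM, and 6 erythroid markers to 698 to 778 and 278 to 307 CPM. Of single markers tested, 7 of 9 bipolar were called higher and 3 of 4 erythroid lower, against 0.338% and 0.0515% of all genes tested. No cone, rod or Müller glia marker was called, and 3 of 8 cone markers had a positive log2 fold change. The part of this makeup in the values was not tested.

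The difference of the TGFB1 effect between the fractions was called for 0 of 34 genes by edgeR, against 0.0131% of 15321 genes tested. DESeq2 and limma voom also gave 0, and an unadjusted p under 0.05 was found for 2, 2 and 3 genes by edgeR, DESeq2 and limma voom, against 711 of 15321, 657 of 43454 and 942 of 15321 of all genes. Slc2a3 had the largest contrast of these, with opposite signs in the 2 fractions and a difference of -1.74 ± 0.47 (SE), adjusted p = 0.696. For Pfkfb3 it was 0.48 ± 0.23 (SE), adjusted p = 1, with 126, 145 and 163 CPM in GFP against 120.4, 144 and 164 CPM in TGFB1 microglia. In non-microglia Pfkfb3 had 16.7 and 16.8 CPM in GFP against 14.02 and 10.1 CPM in TGFB1 libraries. Calls of Slc2a3, Gapdh, Pgam1 and Pdha1 in TGFB1 retinas alone, and of Gpi1 in GFP retinas alone, are therefore not shown to differ between the treatments. The 7 lists of surrounding genes had no called member in either treatment comparison or in the difference by edgeR.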

How the data were processed

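RNA of microglia and non-microglia sorted from rd1 retinas was measured in 18 libraries. The authors deposited 1 table of raw read counts per gene, and the submitters' processing notes name STAR, featureCounts, DESeq2 and GRCm38.p6 without versions; no strand setting or annotation release is named there. The library preparation carries no molecular identifiers, so intervals and floors cover counting error only.

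Counts were tested with edgeR 4.0.16 (R 4.3.3; TMM sizes, filterByExpr, robust quasi-likelihood fit) on all genes, with Benjamini-Hochberg adjustment over all genes tested and a call at an adjusted p under 0.05. TGFB1 was compared with GFP within microglia and within non-microglia in separate fits, and the fractions and the difference of effects came from 1 fit of the 4 groups. CPM used TMM sizes of all 18 libraries, and RPKM used the summed exon length from GENCODE M21. Copies were found with blastn 2.17.0 at 95% identity over 100 bases or more, and shared exons with bedtools 2.31.1. The scripts were tested on simulated data.

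The text names all 34 genes and, from 7 lists of surrounding genes, up to 3 called genes per direction and list by smallest p in each fraction comparison, of which 1 gene is not reported here. The members and lists were chosen with earlier results of these data known. Groups came from the labels. Microglia replicates carry the numbers 2 to 8 in both treatments, but the labels name no shared animal or day. DESeq2 1.42.0, limma 3.58.1 (voom), other scaling, no filter, a replicate block, covariates and leaving out libraries were the alternatives, of which library totals, the Xist, rRNA, library set and low-marker covariates, and the fits without 3 or 6 microglia libraries were chosen after seeing the data.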

Additional observations from a re-analysis of the deposited data

Results flagged for a closer look

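In 9 of 70 groups of 7 microglia libraries, the highest library stood apart from the others by more than Dixon's 95% critical value of 0.568 for the gap over the range. There is 1 group for each gene row and treatment, the second Aldoa row included. Chance gives about 1 in 20 for independent groups, but these groups share libraries. The share over all genes is not given here, so no excess is claimed. GFP microglia 2 stood apart for Pgam1 (24.1 CPM, others 18.3 to 20.7), Eno2 (27.7 CPM, others 3.76 to 14.04), Slc2a1 (58.9 CPM, others 27.5 to 37.1) and Bsg (435 CPM, others 305 to 344). TGFB1 microglia 6 stood apart for Pfkp (25.4 CPM, others 10.2 to 13.5), Aldoc (53.6 CPM, others 5.08 to 19.0), Eno2 (18.4 CPM, others 3.91 to 8.39) and Bsg (386 CPM, others 297 to 328). These libraries also held 547 and 435 CPM of the 7 Müller glia markers that are low in microglia. Hk2 stood apart in TGFB1 microglia 3 (157 CPM, others 99.8 to 121), the library with the least of these markers, 90.9 CPM. The part of other cells' RNA in these values was not tested.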

How the results depend on the processing

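Among the 34 genes, the counts of called genes stayed within 1.5 times their main value under every alternative run. Over all genes this held for both fraction comparisons and not for the treatment comparisons: calls ran from 3 (without the 6 microglia libraries with Xist counts) to 64 (no filter) against 34 in microglia, from 4 (fit of all 18 libraries) to 110 (without GFP non-microglia 1, or without 2) against 53 in non-microglia, and from 1 to 12 (no filter) against 2 for the difference. Leaving out each library in turn gave 12 to 13 higher and 15 to 16 lower genes in GFP retinas, 12 to 14 and 17 to 19 in TGFB1 retinas, 0 to 0 in both treatment comparisons and in the difference, and 3 to 5 isozyme families with a different leading form. With library totals in place of TMM the log2 fold change turned negative for Gpi1 (-0.21 in GFP, -0.29 in TGFB1 retinas), Ldha (-0.11, -0.041), Pdha1 (-0.33, -0.10) and Pfkl (-0.43, -0.37); this scaling moved the median of all genes by -0.50 and -0.48. Of single-gene values under an alternative, 867 kept their direction and side of the threshold in GFP retinas and 867 in TGFB1 retinas. With the direction kept, 6 and 11 lost a call, and 7 and 2 gained one. A further 4 and 4 changed sign, all with library totals. Among these, Gpi1 and Pfkl were called lower in both kinds of retina, and Ldha lost its call in both. Pdha1 was called lower in GFP retinas and lost its call in TGFB1 retinas. The replicate block called 0 of the 34 genes in either treatment comparison or in the difference; over all genes it called 60 in place of 34, 109 in place of 53, and 1 in place of 2. Same-numbered microglia libraries had correlations of deviations from -0.12 to 0.22 (median 0.14, against -0.03 for other pairs). Of the 7 pairs 5 were over 0.1, and 2 of 7 correlated best with their own number. Since not every pair was over 0.1, the numbers were not taken to pair the samples. In non-microglia this correlation was -0.07. Genes near the floor of 0.881 to 2.12 CPM, such as Hk3 in non-microglia, are limited by depth, and 2 non-microglia libraries a group limit the treatment comparison there.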
